A study of Mus musculus with 23 samples.

Results

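Wild-type cDC1 were set against wild-type pDC, the 2 dendritic cell types of mouse spleen that carry high Irf8. The members are the 6 arrays titled WT cDC1 (3) and WT pDC (3), of 23 arrays in the series, taken by title alone. Each array held RNA of 1 sorted spleen population from mice of WT genotype, with no treatment stated. The other arrays used here were 4 of cDC1 and 5 of pDC from mice labelled Bcl6 cKO (conditional knockout), and 3 of WT cDC2 for side-by-side levels. The sources used here do not give the Cre driver, strain, age, sex, sort gates or number of animals behind an array. No label says that replicates came from separate mice, so the p-values cover the spread among arrays alone. Between replicates 2 and 3 that spread may be technical, while Xist and Uty, given below, set replicate 1 apart in both types.

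Conventional type 1 dendritic cells (cDC1) take up dying cells and present their antigens to CD8 T cells, a process called cross-presentation, and depend on the factors IRF8, BATF3 and ID2. Plasmacytoid dendritic cells (pDC) sense viral RNA and DNA in endosomes through TLR7 and TLR9, secrete type I interferon, and are kept in their lineage by TCF4 (E2-2). ID2 binds E proteins such as TCF4 and blocks their contact with DNA, so the pair stands at the branch between the lineages.

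Levels are log2 of the deposited intensity on the Mouse Gene 1.0 ST array, given in replicate order 1, 2, 3. A difference is the mean of WT cDC1 minus the mean of WT pDC on this log2 scale, ± its limma standard error. A gene was called where the adjusted p (limma, Benjamini-Hochberg over 12157 genes) lay below 0.05, and groups "do not overlap" where all 3 arrays of one lay above all 3 of the other. Array medians lay between 30.0 and 39.8 intensity units over the 6 arrays. Replicates 1 and 2 of both types fell in a set of 14 arrays with low medians (29.3 to 34.3) and replicate 3 of both in a set of 9 with high medians (38.9 to 41.2). Each replicate number therefore compares cDC1 with pDC inside 1 set. Xist, the transcript of the inactive X chromosome, read 10.90, 4.06 and 4.43 in WT cDC1 and 11.89, 4.24 and 5.05 in WT pDC, so replicate 1 stood apart in both types. Uty, a gene of the Y chromosome, went the other way, at 3.37, 6.49 and 6.62 in WT cDC1 and 3.31, 5.43 and 6.54 in WT pDC. On the cKO cDC1 and cKO pDC arrays Xist lay between 3.79 and 5.07, so the genotypes also differ in this make-up. The part of sex in the results was not tested.

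The labels were set beside marker lists. These lists were chosen with earlier results of these data known, so they are not an independent check of the labels. All 21 measured cDC1 identity genes lay above the array median on every WT cDC1 array, against 10 of 21 on every WT pDC array. Their summed intensity ran from 25900 to 34600 in WT cDC1 and from 4740 to 5940 in WT pDC. For 21 pDC identity genes, 12 lay above the median on every WT cDC1 array and 21 on every WT pDC array, with sums of 7230 to 11200 in WT cDC1 and 33600 to 55600 in WT pDC. Tlr11, Runx2, Ly6c2 and Ly6a were not analysed here.

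Of 12157 genes, 1643 were called, 13.5% of those tested: 1018 were higher (8.37%) and 625 lower (5.14%) in WT cDC1. The arrays did not overlap for 2523 genes (20.8%, with 12.5% higher and 8.22% lower), of which 1561 were also called. At least a 2-fold difference was seen for 847 called genes higher and 520 lower in WT cDC1, at least 8-fold for 107 and 83, and at least 32-fold for 12 and 15. The median difference over all genes tested was 0.05. Of the called genes, 1015 of 1018 higher ones were higher in all 3 pairs of equal replicate number, and 624 of 625 lower ones were lower in all 3. The same arrays gave the calls, so this agreement in sign was largely set by the selection and is not a replication. Because the arrays deviated in pairs (see the processing), the replicate number was also fitted as a block, which called 2733 genes (22.5%), 1730 higher (14.2%) and 1003 lower (8.25%). Counts given with the block are to be read against these larger shares. List counts without the block are to be read against 8.37% higher and 5.14% lower. Without WT pDC replicate 2 the calls were 756 higher and 752 lower, and without WT pDC replicate 3 they were 1190 higher and 487 lower. In bulk populations, fewer cells of a type and less RNA per cell cannot be told apart.

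**Figure D1:**
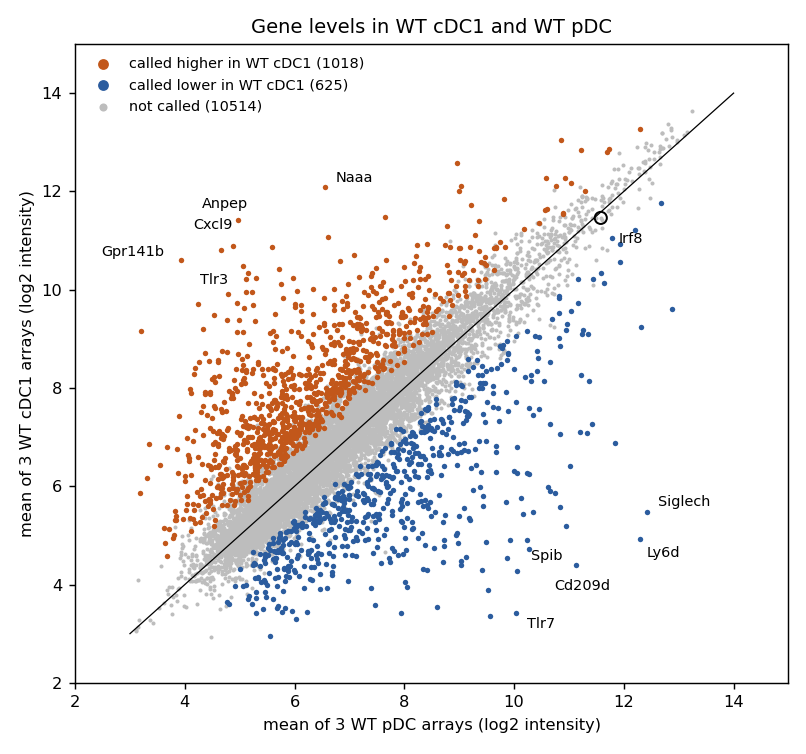
Mean log2 intensity of 12157 genes in 3 WT cDC1 arrays (vertical axis) and 3 WT pDC arrays (horizontal axis), with the line of equality. The 1018 genes called higher in WT cDC1 lie above the line and the 625 called lower lie below it; Irf8, ringed, lies close to it at means of 11.46 and 11.58.

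The genes that led on the cDC1 side were Gpr141b, which encodes an orphan G protein-coupled receptor, and Anpep, which encodes aminopeptidase N (CD13). Gpr141b read 10.68, 10.36 and 10.77 in WT cDC1, against 4.13, 3.68 and 3.98 in WT pDC. Anpep read 11.84, 10.79 and 11.59 in WT cDC1, against 5.02, 5.27 and 4.63 in WT pDC. Neither gene's groups overlapped, and every cDC1 array lay at least 5 log2 units above every pDC array. The differences were 6.67 ± 0.30 for Gpr141b (102-fold, adjusted p = 5.17e-13) and 6.44 ± 0.34 for Anpep (86.6-fold, adjusted p = 3.04e-12).

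On the pDC side the leading genes were Ly6d, a GPI-anchored surface protein of early B-lineage and pDC-committed progenitors, Siglech, a sialic acid-binding receptor that marks mouse pDC, and Cd209d, a DC-SIGN family lectin. Ly6d read 4.55, 4.85 and 5.38 in WT cDC1, against 11.92, 12.12 and 12.84 in WT pDC. Siglech read 5.16, 5.69 and 5.59 in WT cDC1, against 12.52, 12.24 and 12.51 in WT pDC. Cd209d read 3.95, 4.43 and 4.83 in WT cDC1, against 10.69, 10.85 and 11.86 in WT pDC. All 3 genes were low on every cDC1 array and high on every pDC array, with no overlap. Ly6d differed by -7.37 ± 0.42 (adjusted p = 8.28e-12), Siglech by -6.94 ± 0.27 (adjusted p = 6.73e-14) and Cd209d by -6.73 ± 0.40 (adjusted p = 1.67e-11).

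The bases before the start of the leading genes are shown because they are the genes furthest apart between the types. Of each, 250 bases upstream of the RefSeq start in GRCm38.p6 are given 5′ to 3′ on the gene's strand, from the 2 largest differences on each side with an entry in the promoter table. Capitals mark the E-box letters CAGGTG and CAGCTG, the ETS letters GAGGAA and the AP-1 letters TGANTCA, searched on both strands. Gpr141b lies at chr13:19732952-19733201 (minus strand), Anpep at chr7:79848211-79848460 (minus), Siglech at chr7:55767934-55768183 (plus) and Cd209d at chr8:3878500-3878749 (minus).
Gpr141b: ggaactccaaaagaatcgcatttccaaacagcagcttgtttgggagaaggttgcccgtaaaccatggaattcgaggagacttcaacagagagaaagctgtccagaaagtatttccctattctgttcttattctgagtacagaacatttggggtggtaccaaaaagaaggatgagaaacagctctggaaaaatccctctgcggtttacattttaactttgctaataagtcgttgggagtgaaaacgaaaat
Anpep: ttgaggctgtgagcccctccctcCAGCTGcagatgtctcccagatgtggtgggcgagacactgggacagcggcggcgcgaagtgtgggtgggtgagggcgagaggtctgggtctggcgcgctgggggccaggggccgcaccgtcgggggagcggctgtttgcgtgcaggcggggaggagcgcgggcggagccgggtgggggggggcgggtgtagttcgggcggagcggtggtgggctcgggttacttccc
Siglech: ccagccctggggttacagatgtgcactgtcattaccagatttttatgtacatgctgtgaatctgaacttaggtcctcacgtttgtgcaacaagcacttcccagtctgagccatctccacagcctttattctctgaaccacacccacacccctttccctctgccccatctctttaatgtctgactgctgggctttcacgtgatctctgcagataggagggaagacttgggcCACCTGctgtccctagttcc
Cd209d: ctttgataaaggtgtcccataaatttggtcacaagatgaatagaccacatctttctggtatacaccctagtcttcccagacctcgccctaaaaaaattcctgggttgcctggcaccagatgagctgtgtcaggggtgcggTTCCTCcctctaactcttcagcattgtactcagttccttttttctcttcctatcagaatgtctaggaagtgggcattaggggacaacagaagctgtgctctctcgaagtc
Anpep held 1 CAGCTG, Siglech 1 CAGGTG, on the other strand, and Cd209d 1 GAGGAA, on the other strand, while Gpr141b held none of the letters. CAGGTG was in 15.2% of 1056 windows of genes called higher, 20.2% of 624 windows of genes called lower, 16.2% of 12219 windows of all genes tested and 17.2% of all 32851 promoter windows of the same length. In the same order, CAGCTG was in 14.4%, 13.8%, 12.3% and 13% of windows and GAGGAA in 25%, 26%, 22.8% and 23.3%. TGANTCA was in 6.16%, 4.33%, 4.71% and 6.75%, so its share in genes called higher lay above that of all genes tested and below that of all promoters. Windows were available for 816 of 1018 genes called higher, 476 of 625 called lower and 9682 of 12157 tested. A match of letters is a description and not a binding site.

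Beyond these genes, the 15 largest differences higher in WT cDC1 ran down to 4.86 (Hepacam2) and the 15 lower ones to -5.01 (Cmah). Among the higher genes, P3h2 encodes a collagen prolyl hydroxylase and Naaa an acid amidase of fatty acid ethanolamides. P3h2 read 10.87, 10.63 and 10.95 in WT cDC1, against 4.36, 4.24 and 5.37 in WT pDC. Naaa read 12.37, 11.53 and 12.35 in WT cDC1, against 6.52, 6.45 and 6.70 in WT pDC. Both were high on all cDC1 arrays, by 6.16 ± 0.32 for P3h2 and 5.53 ± 0.29 for Naaa, each with an adjusted p of 2.31e-12. Apol7c, Slamf8, Treml4, Rasgrp3, Adam8 and Hepacam2 differed by 4.86 to 5.96 with no overlap. Of these 6 genes, Apol7c spread most among cDC1 arrays, at 10.37, 8.24 and 8.90.

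Among the genes lowest in WT cDC1, Blnk encodes an adaptor of B cell receptor signalling, Prkca a protein kinase C, Gria3 a glutamate receptor subunit, Atp1b1 a sodium pump subunit and Cmah an enzyme that hydroxylates sialic acid. Blnk read 4.33, 4.71 and 5.12 in WT cDC1, against 10.73, 9.69 and 10.40 in WT pDC. It differed by -5.56 ± 0.27 (adjusted p = 1.08e-12), with no overlap. Mctp2 differed by -5.63 ± 0.50, Prkca by -5.34 ± 0.42, Atp1b1 by -5.34 ± 0.37, Gria3 by -5.12 ± 0.35 and Cmah by -5.01 ± 0.31. On the arrays of the lower type, 10 of the 15 genes higher and 12 of the 15 lower in WT cDC1 had a mean below the array median, which leaves their fold sizes uncertain. Over all calls, 223 of 1018 higher and 189 of 625 lower genes were in that position.

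**Figure D2:**
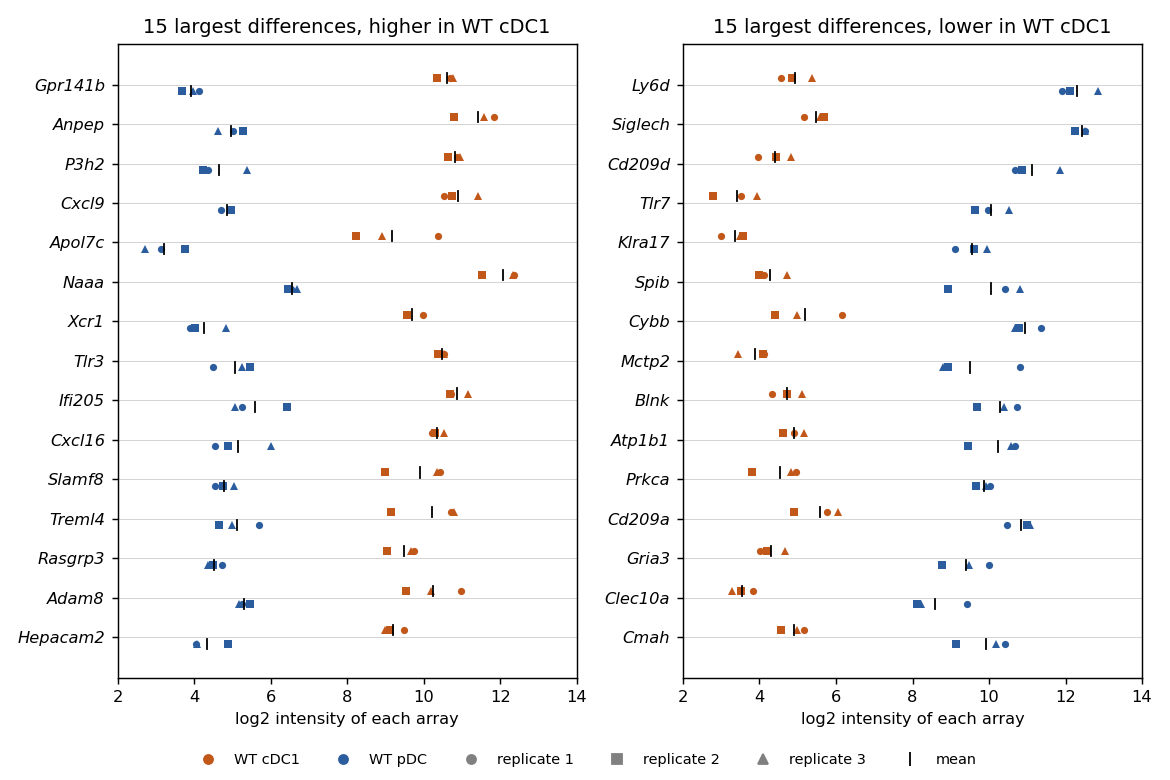
Log2 intensity on each array for the 15 largest called differences in each direction, WT cDC1 above WT pDC within each gene, with marker shape for the replicate number and a bar for the mean. No gene's groups overlap; differences run from 4.86 to 6.67 on the left and from -5.01 to -7.37 on the right.

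The leading genes did not all hold the same place in WT cDC2. Of the 15 genes higher in WT cDC1, 6 had a WT cDC2 mean above the midpoint of the other means, namely Anpep, Apol7c, Cxcl16, Slamf8, Rasgrp3 and Adam8. Anpep averaged 11.41 ± 0.55 in WT cDC1, 4.97 ± 0.32 in WT pDC and 10.57 in WT cDC2 (SD, n = 3), whereas Gpr141b averaged 4.20 in WT cDC2. Of the 15 lower genes, Cd209a, Cybb and Tlr7 stood above that midpoint in WT cDC2, at means of 10.49, 9.55 and 8.59. Siglech and Ly6d averaged 5.89 and 5.05 there. These are levels side by side, without a test.

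Irf8, the factor that both types carry, was not called. It read 11.69, 10.86 and 11.83 in WT cDC1, against 12.10, 10.64 and 12.00 in WT pDC. The groups overlapped and replicate 2 was lowest in both. The difference was -0.12 ± 0.42 (adjusted p = 0.939), and the WT cDC2 mean was 8.22. Of 37 dendritic cell transcription factors tested, 6 were higher and 8 lower in WT cDC1 (8.37% and 5.14% over all genes), with a median difference of -0.11. With the replicate block the counts were 10 and 10.

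The factors higher in WT cDC1 included Id2, Batf3, Spi1 (PU.1, a myeloid ETS factor) and Nfil3, a repressor that acts upstream of cDC1 commitment. Id2 read 9.46, 10.19 and 10.39 in WT cDC1, against 4.85, 7.09 and 7.07 in WT pDC. Batf3 read 9.42, 9.68 and 10.37 in WT cDC1, against 5.55, 6.91 and 7.13 in WT pDC. Both were high on all cDC1 arrays without overlap, and pDC replicate 1 was lowest in each. The differences were 3.67 ± 0.60 for Id2 (adjusted p = 9.56e-05) and 3.29 ± 0.47 for Batf3 (adjusted p = 1.37e-05). Spi1 was higher by 2.53 ± 0.50 and Nfil3 by 2.24 ± 0.47. Batf3, Spi1 and Nfil3 averaged 9.30, 10.06 and 9.78 in WT cDC2. Irf5 was higher by 1.53 ± 0.46 (adjusted p = 0.0277).

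Bcl6, the gene targeted in the cKO mice and a repressor known from germinal centre B cells, read 8.12, 7.12 and 7.02 in WT cDC1, against 6.33, 5.40 and 5.88 in WT pDC. The groups did not overlap, and replicate 1 was highest in both. The difference was 1.55 ± 0.37 (adjusted p = 0.00473). Without WT cDC1 replicate 1 it was 1.20 with an adjusted p of 0.0506. In the arrays labelled cKO, Bcl6 was not lower in cDC1: it averaged 8.39 ± 0.29 in cKO cDC1 (SD, n = 4), against 7.42 ± 0.61 in WT cDC1 (SD, n = 3). In pDC it averaged 5.72 ± 0.52 in cKO (SD, n = 5), against 5.87 ± 0.47 in WT (SD, n = 3). The sources used here do not give the deleted exons, so the level of this probe set does not check the cKO label.

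The factors lower in WT cDC1 were led by Spib, an ETS factor of pDC and B cells, Zeb2, a repressor needed for pDC and cDC2, and Tcf4. Spib read 4.12, 3.99 and 4.71 in WT cDC1, against 10.42, 8.92 and 10.82 in WT pDC. Zeb2 read 4.66, 4.51 and 4.53 in WT cDC1, against 9.45, 8.74 and 9.18 in WT pDC. Tcf4 read 6.89, 7.61 and 7.28 in WT cDC1, against 11.83, 11.08 and 11.35 in WT pDC. None of the groups overlapped, and pDC replicate 2 was the lowest pDC array for all 3 genes. The differences were -5.78 ± 0.45 for Spib (adjusted p = 1.66e-09), -4.56 ± 0.23 for Zeb2 (adjusted p = 2.31e-12) and -4.16 ± 0.29 for Tcf4 (adjusted p = 3.33e-10). Irf4 was lower by -3.08 ± 0.44 and Ets1 by -2.63 ± 0.25. Bcl11a, which acts with TCF4 in pDC, was lower by -1.30 ± 0.38 and Tcf12, another E protein, by -1.42 ± 0.27. Irf7, the master factor of type I interferon induction, read 8.85, 8.24 and 8.80 in WT cDC1, against 10.60, 7.56 and 10.37 in WT pDC. Its groups overlapped through pDC replicate 2 alone, and the difference of -0.88 ± 0.51 was not called (adjusted p = 0.334).

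**Figure D3:**
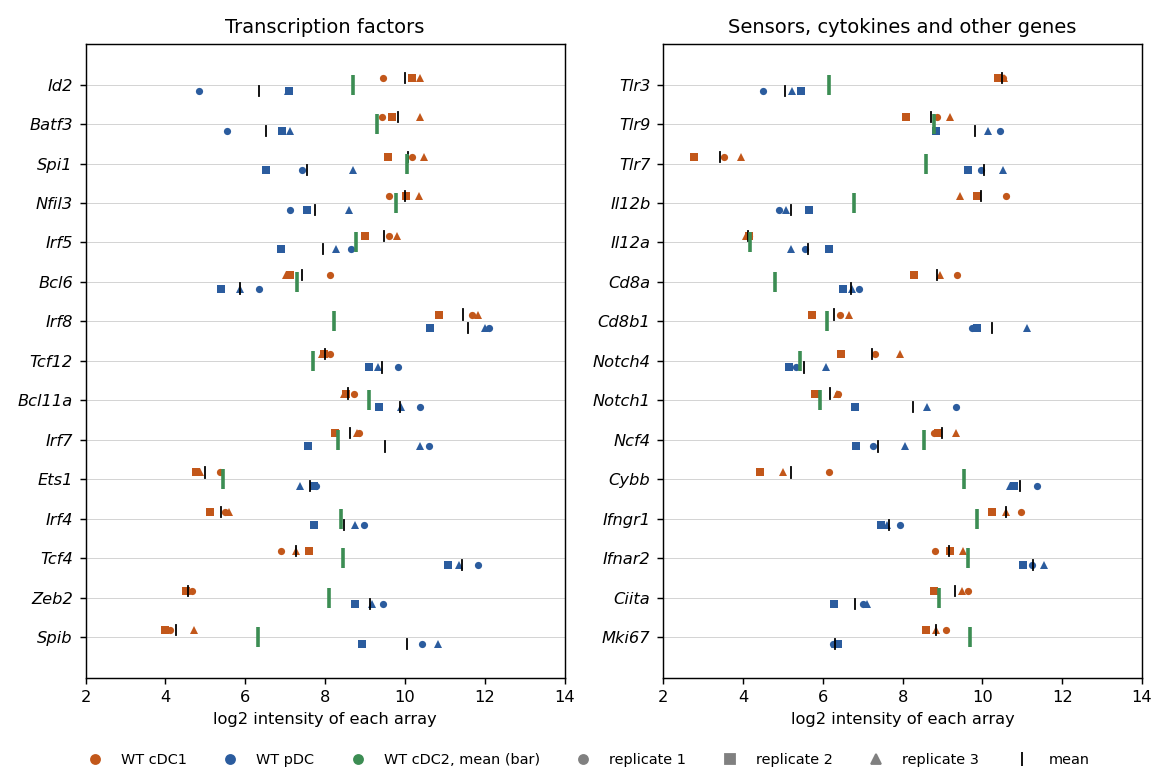
Log2 intensity on each array for transcription factors (left) and for sensors, cytokines and other genes described in the text (right), WT cDC1 above WT pDC within each gene. Marker shape gives the replicate number, black bars the means and green bars the WT cDC2 mean; Irf8 overlaps between the types, whereas Id2 (3.67) and Spib (-5.78) do not.

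The identity lists restate what defines the types and were chosen with such profiles known. Of 21 cDC1 identity genes, 19 were higher and none lower in WT cDC1, with a median difference of 3.08. The chemokine receptor gene Xcr1 read 9.97, 9.55 and 9.58 in WT cDC1, against 3.89, 4.01 and 4.84 in WT pDC, a difference of 5.46 ± 0.25 (adjusted p = 5.63e-13). Clec9a, the receptor for exposed actin of dead cells, read 10.96, 10.71 and 11.24 in WT cDC1, against 9.77, 9.81 and 9.63 in WT pDC. Its difference was 1.24 ± 0.31 (adjusted p = 0.00728), smaller than that of Xcr1, and its pDC arrays stood above the WT cDC2 mean of 6.86. The Clec9a call was lost without replicate 1 of both WT groups and without replicate 3 of both. Wdfy4, needed for cross-presentation of cell-associated antigen, was higher by 3.02 ± 0.28, the integrin gene Itgae (CD103) by 3.26 ± 0.42 and the adhesion gene Cadm1 by 2.92 ± 0.47. Cd24a and Tlr12 were not called, at 0.71 and 0.42.

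Of 21 pDC identity genes, none was higher and 19 were lower in WT cDC1, with a median of -3.76. With the replicate block 21 were lower. Klra17, a Ly49-family receptor gene, averaged 3.35 ± 0.30 in WT cDC1 and 9.56 ± 0.42 in WT pDC (SD, n = 3 each), without overlap and with a difference of -6.21 ± 0.37 (adjusted p = 1.67e-11). Bst2 (tetherin, the PDCA-1 antigen) was lower by -3.26 ± 0.45 and Ccr9, a gut-homing chemokine receptor, by -3.76 ± 0.40. Both had levels above the array median in WT cDC1, at means of 9.62 and 7.07. Plac8 and Pld4 were not called, at -0.61 and -0.88.

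Of 22 core conventional DC genes, 12 were higher and 1 lower in WT cDC1 (14 and 2 with the block), with a median of 1.35. Fgl2, a secreted fibrinogen-like protein, differed by 4.83 ± 0.24, the adhesion gene Nectin1 by 4.56 ± 0.33 and the stem cell factor receptor gene Kit by 2.67 ± 0.29, none with overlap. Flt3, the receptor for the growth factor of all dendritic cells, read 10.55, 9.61 and 10.19 in WT cDC1, against 9.67, 9.21 and 9.59 in WT pDC. Its groups overlapped, and the difference of 0.62 ± 0.27 was not called (adjusted p = 0.162, and 0.0445 with the replicate block).

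Genes of nucleic acid and microbial sensing were split between the types. Of 28 sensing genes tested, 5 were higher and 4 lower in WT cDC1, with a median of 0.36, and the replicate block gave 7 and 7. Tlr3, the endosomal receptor for double-stranded RNA, read 10.52, 10.39 and 10.54 in WT cDC1, against 4.49, 5.46 and 5.24 in WT pDC. Tlr7, the receptor for single-stranded RNA, read 3.53, 2.78 and 3.95 in WT cDC1, against 9.96, 9.64 and 10.53 in WT pDC. The pair ran in opposite directions in every replicate pair, with differences of 5.42 ± 0.30 for Tlr3 (adjusted p = 6.50e-12) and -6.63 ± 0.36 for Tlr7 (adjusted p = 4.33e-12). Tlr9, the receptor for CpG DNA, read 8.86, 8.09 and 9.20 in WT cDC1, against 10.44, 8.83 and 10.14 in WT pDC. Its groups overlapped and the difference of -1.09 ± 0.45 was not called (adjusted p = 0.132), but was with the replicate block (adjusted p = 0.0106).

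Tlr13, the receptor for bacterial ribosomal RNA in mice, was higher in WT cDC1 by 3.45 ± 0.44, and the inflammasome gene Nlrp3 by 3.01 ± 0.32. Slc15a4, a lysosomal transporter needed for TLR7 and TLR9 signalling, was lower by -2.16 ± 0.33, and Pld3, an endosomal exonuclease, by -1.87 ± 0.33. Sting1, the adaptor of cytosolic DNA sensing, was lower by -1.14 ± 0.29 (adjusted p = 0.00766), and by -0.95 with an adjusted p of 0.0554 without WT cDC1 replicate 2. Cd14, the lipopolysaccharide co-receptor, was higher by 2.90 ± 0.80 (adjusted p = 0.0142). Its adjusted p lay between 0.0562 and 0.0975 without WT cDC1 replicate 2 or 3 or WT pDC replicate 1.

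The interferon receptor chains named here did not all differ in the same direction. Ifnar2, a chain of the type I interferon receptor, read 8.82, 9.18 and 9.51 in WT cDC1, against 11.24, 11.01 and 11.54 in WT pDC. Ifngr1, the ligand-binding chain for interferon gamma, read 10.96, 10.24 and 10.60 in WT cDC1, against 7.94, 7.45 and 7.60 in WT pDC. Neither overlapped, and the differences were -2.09 ± 0.27 for Ifnar2 (adjusted p = 4.75e-06) and 2.94 ± 0.29 for Ifngr1 (adjusted p = 6.49e-08). Ifnar1 was lower by -1.33 ± 0.30. Of 25 interferon-stimulated genes tested, 3 were higher and 4 lower in WT cDC1 (8.37% and 5.14% over all genes), with a median of -0.22. Ifi27l2a was lower by -2.88 ± 0.36 and Oasl2 by -2.36 ± 0.25. Mx1, an antiviral GTPase gene, was higher by 1.33 ± 0.32 (adjusted p = 0.00484), and by 1.03 with an adjusted p of 0.0504 without WT cDC1 replicate 3.

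Among 34 cytokine and growth factor receptor genes, 5 were higher and 6 lower in WT cDC1, with a median of 0.00, and the replicate block gave 8 and 6. Il7r, the interleukin 7 receptor of lymphoid cells, read 5.72, 5.57 and 5.74 in WT cDC1, against 9.96, 9.47 and 10.10 in WT pDC. It differed by -4.17 ± 0.26 (adjusted p = 3.79e-11), with no overlap. Lifr was lower by -4.12 ± 0.32 and Tgfbr1 by -2.31 ± 0.25, while Csf2ra, the GM-CSF receptor chain, was higher by 2.18 ± 0.33.

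Called cytokine and chemokine genes were mostly higher in WT cDC1, with 10 of 27 higher and 1 lower (12 and 2 with the block) and a median of 0.33. Cxcl9, a chemokine that draws CXCR3-bearing T cells, read 10.52, 10.74 and 11.43 in WT cDC1, against 4.70, 4.95 and 4.96 in WT pDC. Il12b, which encodes the shared chain of interleukins 12 and 23, read 10.59, 9.86 and 9.43 in WT cDC1, against 4.91, 5.65 and 5.09 in WT pDC. Neither overlapped, at 6.03 ± 0.43 for Cxcl9 (adjusted p = 4.25e-10) and 4.75 ± 0.32 for Il12b (adjusted p = 1.75e-10). Il12a, the partner chain of interleukin 12, read 4.16, 4.15 and 4.09 in WT cDC1, against 5.56, 6.16 and 5.19 in WT pDC. It was the 1 gene of the list that was lower, by -1.50 ± 0.22 (adjusted p = 2.54e-05), and its WT cDC1 arrays lay below the array median. Cxcl16 was higher by 5.21 ± 0.29 and Il1b by 3.62 ± 0.40.

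Costimulatory genes went both ways, with 6 of 23 higher and 5 lower, a median of 0.16. Cd86, a ligand of CD28, read 11.47, 11.44 and 11.49 in WT cDC1, against 7.35, 8.16 and 7.46 in WT pDC. It was higher by 3.81 ± 0.27 (adjusted p = 3.51e-10) with no overlap, and its partner Cd80 by 3.63 ± 0.32. Havcr2 (TIM-3) was higher by 4.37 ± 0.29. Within the SLAM receptor family, Slamf8 was higher by 5.13 ± 0.45, whereas Slamf9 was lower by -3.26 ± 0.42 and Slamf6 by -2.43 ± 0.44.

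Of 12 MHC class II presentation genes, 3 were higher and none lower in WT cDC1, with a median of 0.63, and 6 were higher with the replicate block. Ciita, the class II transactivator, read 9.63, 8.79 and 9.50 in WT cDC1, against 7.02, 6.29 and 7.11 in WT pDC. It was higher by 2.50 ± 0.46 (adjusted p = 0.000375) with no overlap, and H2-Ob, a chain of the peptide-loading modulator H2-O, by 2.46 ± 0.31. H2-Eb1, a class II beta chain, was higher by 1.13 ± 0.29 (adjusted p = 0.00869). Its adjusted p was 0.0522 without WT cDC1 replicate 3 and 0.0809 without WT pDC replicate 2. The class II genes H2-Ab1 and H2-Aa were not called, at 0.49 and 0.45. H2-Ab1 averaged 13.19 in WT cDC1 and 12.70 in WT pDC.

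Of 18 class I and cross-presentation genes, 4 were higher and none lower, with a median of 0.70, and the replicate block gave 12 higher. Rab43, a GTPase described in cDC1 cross-presentation, read 10.15, 9.17 and 9.84 in WT cDC1, against 7.39, 6.08 and 7.42 in WT pDC. It was higher by 2.76 ± 0.34 (adjusted p = 2.36e-06), and the lipid antigen-presenting gene Cd1d1 by 2.11 ± 0.28, both without overlap. Psmb9, an immunoproteasome subunit, was higher by 1.35 ± 0.36 (adjusted p = 0.0115), with adjusted p of 0.0788 without WT cDC1 replicate 3 and 0.0882 without WT pDC replicate 2.

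The phagocyte NADPH oxidase, which makes superoxide, was split by subunit: of 6 genes, 1 was higher and 3 lower. Cybb, the catalytic gp91phox chain, read 6.17, 4.42 and 4.99 in WT cDC1, against 11.36, 10.79 and 10.69 in WT pDC. Ncf4 (p40phox) read 8.77, 8.88 and 9.34 in WT cDC1, against 7.27, 6.82 and 8.06 in WT pDC. Both were free of overlap, Cybb at -5.75 ± 0.37 (adjusted p = 7.38e-11) and Ncf4 at 1.62 ± 0.33 (adjusted p = 0.00109). The proton channel gene Hvcn1 was lower by -2.62 ± 0.52. Ncf1 was lower by -1.41 ± 0.44 (limma adjusted p = 0.0317), a call lost in 9 of 22 other settings. Cyba, the partner chain of Cybb, was not called, at 0.10.

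Of 29 lysosomal genes, 3 were higher and 6 lower, with a median of -0.30. The protease gene Ctsl read 5.58, 5.31 and 6.38 in WT cDC1, against 9.97, 9.92 and 10.48 in WT pDC, a difference of -4.36 ± 0.33 (adjusted p = 1.02e-09). Npc1, a lysosomal cholesterol exporter, was lower by -2.44 ± 0.29. The tetraspanin gene Cd63 was higher by 3.77 ± 0.78, with pDC arrays spread at 4.49, 8.89 and 7.08. Among 29 Rab GTPase genes, 5 were higher and 1 lower (8.37% and 5.14% over all genes), and the replicate block gave 12 and 2. Rab32, a GTPase of lysosome-related organelles, was higher by 4.07 ± 0.48.

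Of 18 phagocytosis and efferocytosis genes, 7 were higher and none lower in WT cDC1 (1 with the block), with a median of 0.48. Anxa1 was higher by 3.73 ± 0.43, the secreted nuclease gene Dnase1l3 by 2.96 ± 0.40 and Lgals3 (galectin 3) by 2.44 ± 0.52. In the integrin and adhesion list, 6 of 25 were higher and 4 lower. The tetraspanin genes Cd9 and Cd81 were higher by 4.72 ± 0.41 and 4.47 ± 0.38. Cdh1 (E-cadherin) read 4.65, 4.71 and 4.88 in WT cDC1, against 9.74, 7.31 and 8.59 in WT pDC, a difference of -3.80 ± 0.51.

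Of 22 Siglec, paired receptor and adaptor genes, none was higher and 9 were lower in WT cDC1, with a median of -0.58. Lair1, an inhibitory collagen receptor, read 5.82, 5.67 and 6.09 in WT cDC1, against 10.88, 10.43 and 10.91 in WT pDC. It was lower by -4.88 ± 0.23 (adjusted p = 1.06e-12), Cd33 by -4.55 ± 0.29, Sirpa, the receptor for CD47, by -3.78 ± 0.43 and Cd72 by -3.58 ± 0.29. Of 25 C-type lectin and Fc receptor genes, 2 were higher and 7 lower, and the replicate block gave 4 and 7. Cd209a, the mouse gene named DC-SIGN, read 5.76, 4.89 and 6.07 in WT cDC1, against 10.47, 10.98 and 11.08 in WT pDC, a difference of -5.27 ± 0.28 (adjusted p = 3.34e-12). Clec10a was lower by -5.05 ± 0.49 and Klrd1 (CD94) by -4.76 ± 0.33. Clec7a (dectin 1) was higher by 2.30 ± 0.42, with pDC arrays at 5.73, 7.20 and 4.73.

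Of 19 chemokine and migration receptor genes, 1 was higher and 6 lower, with a median of -0.59. This list leaves out Xcr1 (5.46) and Ccr9 (-3.76), which are counted in the identity lists. Ccrl2 was higher by 1.92 ± 0.24. Gpr183 (EBI2, an oxysterol receptor) was lower by -1.84 ± 0.24 and Cxcr5 by -1.93 ± 0.38.

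Of 19 lymphoid-associated genes described in pDC, none was higher and 9 were lower in WT cDC1, with a median of -0.82. Cd7 read 7.21, 6.26 and 7.17 in WT cDC1, against 11.96, 11.17 and 12.39 in WT pDC, and Cd4 read 5.58, 5.10 and 5.41 in WT cDC1, against 10.15, 8.11 and 9.26 in WT pDC. Neither overlapped, at -4.96 ± 0.38 for Cd7 and -3.81 ± 0.43 for Cd4. The chains of the CD8 coreceptor parted, with Cd8a counted in the cDC1 identity list. Cd8a read 9.37, 8.29 and 8.95 in WT cDC1, against 6.90, 6.51 and 6.74 in WT pDC, and was higher by 2.15 ± 0.27 (adjusted p = 3.13e-06). Cd8b1 read 6.43, 5.74 and 6.65 in WT cDC1, against 9.75, 9.87 and 11.11 in WT pDC, and was lower by -3.97 ± 0.35 (adjusted p = 1.14e-08).

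Markers of other cells moved with part of this pattern. Of 11 B cell markers tested, none was higher and 5 were lower in WT cDC1 (9 with the replicate block), and their summed intensity ran from 596 to 1450 in WT cDC1 and from 1190 to 3060 in WT pDC. Ebf1, a B-lineage factor, is also counted in the lymphoid list. It read 3.40, 3.36 and 3.63 in WT cDC1, against 5.35, 5.94 and 6.54 in WT pDC. Blk (-1.79 ± 0.35), Cd79a (-1.75 ± 0.43), Cr2 (-1.45 ± 0.33) and Pax5 (-1.44 ± 0.36) were called lower as well. Ms4a1 (CD20), a defining B cell marker, read 7.17, 6.93 and 8.45 in WT cDC1, against 5.49, 7.62 and 6.80 in WT pDC, with overlap. It was the 1 of 11 with a difference above 0 and was not called. Of 7 plasma cell markers tested, 4 were lower, among them Irf4, which is also counted with the transcription factors. The others were Mzb1 (-3.42 ± 0.34), Sdc1 (-1.15 ± 0.24) and Eaf2 (-0.95 ± 0.19), and 1 of the 7 had a difference above 0. Plasma cell marker sums ran from 227 to 350 in WT cDC1 and from 1270 to 1670 in WT pDC. Jchain read 3.84, 3.78 and 6.35 in WT cDC1, against 7.42, 9.82 and 5.71 in WT pDC, and was not called (adjusted p = 0.103). T cell marker sums ran from 405 to 759 in WT cDC1 and from 592 to 1170 in WT pDC, with 1 of 9 lower (2 with the block). NK cell sums ran from 808 to 952 in WT cDC1 and from 383 to 1570 in WT pDC, with 2 of 10 higher. Ncr1, an NK cell receptor, stood out on WT pDC replicate 2 alone, at 7.23, where the other WT arrays lay at 5.20 or below. The part of such cells in the results was not tested.

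The cDC2 marker list overlapped the pDC side, with 6 of 14 lower in WT cDC1 and sums of 1930 to 2280 in WT cDC1 and 7810 to 12000 in WT pDC. Its members Cd209a, Sirpa, Clec10a, Cd4 and Cd7 were also given above under other lists, so the counts share genes. Clec4a4 (DCIR2) and Itgam (CD11b), defining cDC2 markers, were not called. Clec4a4 read 2.97, 3.01 and 3.41 in WT cDC1, against 3.11, 3.03 and 3.30 in WT pDC, all below the array median, whereas WT cDC2 averaged 7.55.

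Macrophage markers gave sums of 508 to 752 in WT cDC1 and 462 to 623 in WT pDC, with Spic alone of 12 called (2 higher and 2 lower with the block), at 1.30 ± 0.40 (adjusted p = 0.0286, and 0.0921 to 0.135 without WT cDC1 replicate 1 or 3 or WT pDC replicate 1 or 3). Monocyte and neutrophil sums ran from 374 to 1030 in WT cDC1 and from 539 to 1280 in WT pDC, with S100a9 at 7.80, 5.73 and 5.73 in WT cDC1 and 7.31, 8.68 and 4.54 in WT pDC. Of 7 erythroid and platelet markers tested, none was called and none had an unadjusted p below 0.05 in limma.

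**Figure D4:**
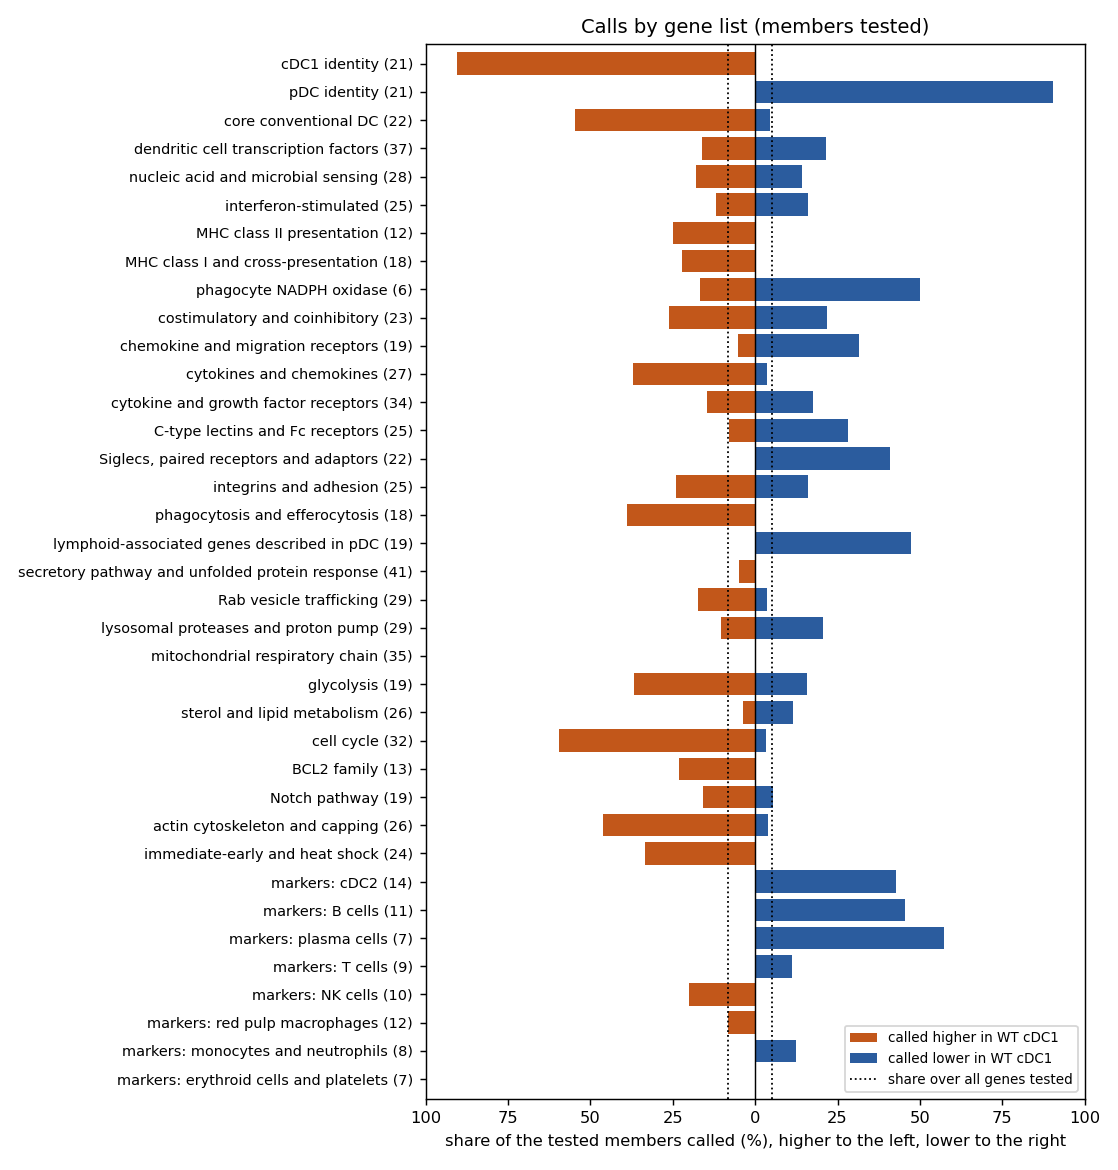
Share of the tested members of each gene list (number in brackets) called higher (orange, to the left) or lower (blue, to the right) in WT cDC1 than in WT pDC. Dotted lines give the shares over all genes tested, 8.37% higher and 5.14% lower; cell cycle genes reach 19 of 32 higher and pDC identity genes 19 of 21 lower.

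Of 32 cell cycle genes, 19 were higher and 1 lower in WT cDC1 (23 and 2 with the block), with a median of 1.28. By pair of equal replicate number the median difference was 1.35, 1.09 and 1.35. Mki67, the proliferation antigen Ki-67, read 9.08, 8.58 and 8.85 in WT cDC1, against 6.26, 6.38 and 6.31 in WT pDC, a difference of 2.52 ± 0.47 (adjusted p = 0.000439). Top2a, the mitotic topoisomerase, was higher by 2.51 ± 0.32, cyclin Ccnb2 by 2.48 ± 0.31 and Ccna2 by 2.21 ± 0.35. Ccnd2, a G1 cyclin, went the other way, at 7.93, 7.36 and 8.41 in WT cDC1, against 9.79, 9.23 and 9.82 in WT pDC, a difference of -1.72 ± 0.29 (adjusted p = 0.000147). In WT cDC2 Mki67 averaged 9.70.

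Glycolysis was split between enzymes and transporters: 7 of 19 genes were higher and 3 lower, with a median of 0.73. Pfkp, a phosphofructokinase, read 9.80, 9.16 and 9.29 in WT cDC1, against 7.40, 7.04 and 7.14 in WT pDC, a difference of 2.22 ± 0.30 (adjusted p = 6.40e-06). The hexokinase gene Hk3 was higher by 2.17 ± 0.26 and Pgk1 by 1.50 ± 0.30. The 3 lower genes were all sugar transporters of the Slc2a family. Slc2a3 (GLUT3) read 6.59, 6.55 and 6.93 in WT cDC1, against 10.02, 7.48 and 9.60 in WT pDC, and differed by -2.34 ± 0.49 (adjusted p = 0.00140). Slc2a6 was lower by -1.62 ± 0.37 and Slc2a1 (GLUT1) by -1.45 ± 0.30.

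Of 35 respiratory chain genes none was called in limma, and 3 had an unadjusted p below 0.05, all higher. Their differences had a median of 0.27, and 33 of 35 were above 0. The replicate block called 5 higher, a share near the 14.2% of all genes. Of 41 secretory pathway and unfolded protein response genes, 2 were higher and none lower (8.37% and 5.14% over all genes), with a median of -0.01. The block gave 4 and 5, where its shares over all genes were 14.2% and 8.25%. Sdf2l1, an endoplasmic reticulum chaperone cofactor, was higher by 1.55 ± 0.30. Xbp1, the secretory pathway factor prominent in pDC, read 9.24, 9.11 and 9.87 in WT cDC1, against 10.75, 9.12 and 11.50 in WT pDC, and was not called (-1.05 ± 0.45, adjusted p = 0.147).

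In sterol and lipid metabolism, 1 of 26 genes was higher and 3 lower (8.37% and 5.14% over all genes), with a median of -0.36. The block gave 2 and 7. Pltp, the phospholipid transfer protein, was lower by -4.65 ± 0.42 and the sterol synthesis gene Msmo1 by -1.96 ± 0.34, while Lipa (lysosomal acid lipase) was higher by 2.33 ± 0.38. Of 13 BCL2 family genes, 3 were higher and none lower (4 and 1 with the block). Bcl2l1 (BCL-XL) was higher by 1.18 ± 0.22 and Pmaip1 (NOXA) by 1.57 ± 0.36.

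Of 19 Notch pathway genes, 3 were higher and 1 lower (8.37% and 5.14% over all genes). Notch1, counted in the lymphoid list, read 6.39, 5.81 and 6.37 in WT cDC1, against 9.34, 6.81 and 8.61 in WT pDC, a difference of -2.06 ± 0.53 (adjusted p = 0.00839). Notch4 read 7.31, 6.46 and 7.95 in WT cDC1, against 5.34, 5.15 and 6.08 in WT pDC, a difference of 1.72 ± 0.44 (adjusted p = 0.00836), and of 1.36 with an adjusted p of 0.0716 without WT cDC1 replicate 3. The pathway's DNA-binding factor Rbpj was higher by 1.78 ± 0.30 and the ligand gene Dll4 lower by -2.68 ± 0.45.

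Actin cytoskeleton genes were higher in 12 of 26 cases and lower in 1, with a median of 0.97. Fscn1 (fascin, a filament bundler of dendrites) was higher by 2.65 ± 0.39. The lower gene was Capg, a filament-capping protein, at 4.71, 4.71 and 5.29 in WT cDC1, against 8.84, 7.57 and 9.78 in WT pDC, a difference of -3.83 ± 0.41 (adjusted p = 3.02e-07).

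Immediate-early and heat shock genes, which tissue handling can induce, were higher in 8 of 24 cases and lower in none, with a median of 0.96. By pair the median was 0.87, 1.50 and 0.28. Egr2 was higher by 3.14 ± 0.52 and Nr4a2 by 2.69 ± 0.41. Dusp1, a MAP kinase phosphatase, averaged 13.05 ± 0.08 in WT cDC1 and 10.85 ± 1.28 in WT pDC (SD, n = 3 each), with pDC replicate 2 lowest at 9.41. Its difference was 2.20 ± 0.55 (adjusted p = 0.00702), and 1.48 with an adjusted p of 0.0725 without WT pDC replicate 2. The heat shock gene Hspa1a read 10.27, 10.13 and 12.60 in WT cDC1, against 6.89, 7.38 and 12.21 in WT pDC, and differed by 2.17 ± 1.61 (adjusted p = 0.509, and 0.0234 with the replicate block). Replicate 3 was highest in both types. The part of handling in the results was not tested.

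The same comparison in mice labelled cKO, whose Bcl6 signal was not lower in cDC1, took its means from other arrays, 4 of cKO cDC1 and 5 of cKO pDC. It called 2485 genes (20.4%), 1525 higher (12.5%) and 960 lower (7.9%) in cKO cDC1. Of the 1018 genes called higher in WT cDC1, 1016 had the same sign in cKO and 882 (86.6%) were called the same way. Of the 625 lower ones, 614 had the same sign and 526 (84.2%) were called the same way. Over all genes tested, 77.8% had the same sign in both genotypes. Both contrasts came from the same fit, with a shared spread, filter and choice of probe set, so the cKO calls are not independent of the WT calls. Tlr7 differed by -6.69 in cKO and -6.63 in WT, Siglech by -6.93 and -6.94, and Gpr141b by 6.45 and 6.67.

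The cDC1 minus pDC difference itself differed between cKO and WT for 40 genes (0.329%), 39 with a higher (0.321%) and 1, Gm12253, with a lower value in cKO (0.00823%), and 22 of the 40 were called in WT. Cd209d differed by -1.30 in cKO and -6.73 in WT, a change of 5.43 ± 0.51 (adjusted p = 7.39e-07). Cybb differed by -1.91 in cKO and -5.75 in WT, a change of 3.85 ± 0.48 (adjusted p = 5.36e-05). In both genes the pDC means were close, at 10.68 in cKO and 11.14 in WT for Cd209d and 11.30 and 10.95 for Cybb, and the cDC1 means were apart, at 9.38 in cKO and 4.41 in WT for Cd209d and 9.40 and 5.19 for Cybb. Zeb2 kept its sign, at -2.69 in cKO and -4.56 in WT, a change of 1.87 ± 0.30 (adjusted p = 0.00185). Pilra, S100a10, Ccr1 and Capg were lower in cDC1 in WT and above 0 in cKO, and Cd33 was near 0 in cKO (-0.38). The WT difference of Ccr1, -1.13 ± 0.36 (limma adjusted p = 0.0380), lost its call in 14 of 22 other settings. Its means of 3.64 in WT cDC1 and 4.77 in WT pDC lay below the mean array medians of 5.07 and 5.11.

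**Figure D5:**
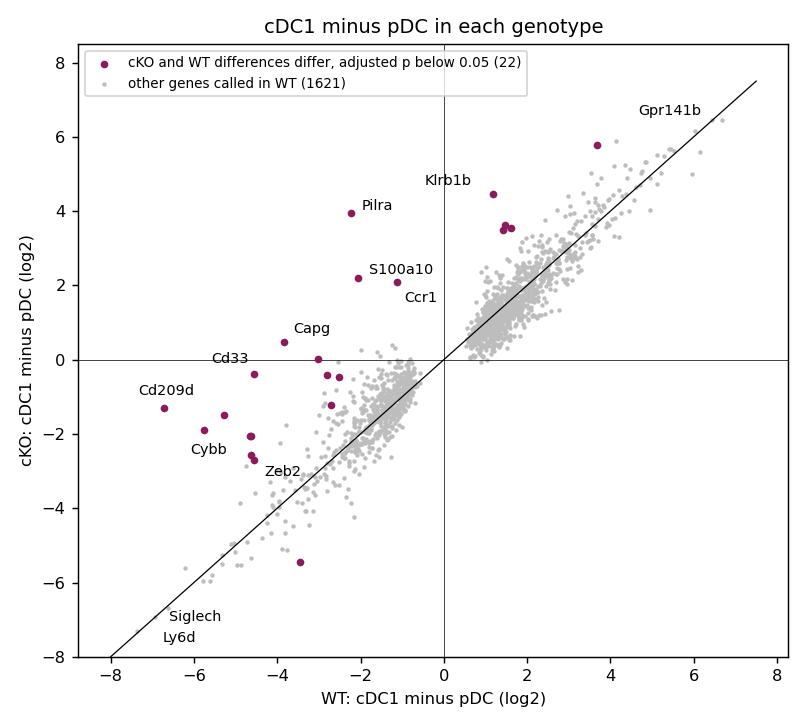
The cDC1 minus pDC log2 difference in cKO arrays (vertical axis, 4 cDC1 and 5 pDC) and in WT arrays (horizontal axis, 3 and 3) for the 1643 genes called in WT, with the line of equality. Purple points are the 22 genes whose difference itself differed between cKO and WT; Cd209d, Cybb and Pilra lie far above the line.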

How the data were processed

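RNA of sorted spleen populations was hybridised to Mouse Gene 1.0 ST arrays, after collagenase digestion and biotinylated cDNA synthesis per the labels' protocols. The deposited intensity values came from Affymetrix Expression Console with RMA, per the submitters' processing notes, with versions not given in the sources used here. Their range of 3.785 to 13981 is linear, and log2 was computed. Of 28853 probe sets, 21789 name 1 gene and were used (1621 name several, 5443 none in the table used). Symbols were updated by Entrez identifier to RefSeq GRCm38.p6 (21698 matched). Probe sets above their array's median in at least 3 hybridisations were kept, with the brightest per gene, leaving 12157 of 19938 genes. Sequences are RefSeq's; strand orientation was checked from TATA letters.

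With limma 3.58.1 in R 4.3.3, 6 group means were fitted to all 23 arrays (17 residual degrees of freedom, two-sided tests, Benjamini-Hochberg over all genes), since the groups share 1 estimate of the spread. The code was tested on simulated data. Errors are SE for differences and SD for means. The number of arrays limits the precision. Arrays were parted into sets at the widest gap of their medians. The replicate numbers were taken to pair the WT arrays because same-numbered deviations from the group means correlated at 0.704, 0.463 and 0.601 over genes; no label states the pairing. Alternatives were the replicate block, other array subsets, scalings, filters, weights and left-out arrays.

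The members, the 38 gene lists and the tests were chosen with earlier results of these data known. Named genes are the 15 largest called differences without overlap in each direction, up to 4 called members of each list and direction, up to 2 of lists with none, the markers, Bcl6 and the 5 largest called differences between genotypes. Irf5, Irf7, Irf8, Ets1, Tcf12, Bcl11a, Tlr9, Ifnar1, Notch1, Xbp1, Hspa1a, Flt3 and the other uncalled genes given as values were named after their values were seen. Figures used matplotlib 3.10.9 and numpy 2.4.6.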

Additional observations from a re-analysis of the deposited data

Results flagged for a closer look

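For 13 named genes the cDC1 minus pDC difference differed between cKO and WT by limma's test of that difference (adjusted p below 0.05). The values below are the cKO difference minus the WT difference on the log2 scale. The largest were Ccl24, an eosinophil-attracting chemokine, at 6.36 ± 0.34 (6.29 in cKO and -0.07 in WT), and Pilra, a paired inhibitory receptor, at 6.16 ± 0.57 (3.94 in cKO and -2.22 in WT). Cd209d changed by 5.43 and Cd209a by 3.80. Among receptors, Cd33 changed by 4.17, Klrb1b by 3.29 and Ccr1 by 3.22. Capg changed by 4.30, S100a10 by 4.26 and Cybb by 3.85. Pltp changed by 2.59, Itgam by 2.32 and Zeb2 by 1.87. All 13 cDC1 minus pDC differences were higher in cKO than in WT, and Pltp had the largest adjusted p among them, 0.0355. Ccl24 and Itgam were not called in WT.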

How the results depend on the processing

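Of 198 named genes, 179 were called, and 131 of these were called in every setting other than the test against a minimum difference; 48 lost the call in at least 1, and none changed sign past the threshold. Counts of WT calls are given as all, higher and lower. They were 2733, 1730 and 1003 with the replicate block fitted on the WT cDC1 and WT pDC arrays (1617 of 1643 calls kept), 2748, 1713 and 1035 with a random replicate block, and 2611, 1618 and 993 with the array set as a term. The WT counts were 1002, 626 and 376 when only the WT cDC1 and WT pDC arrays were fitted, and 431, 261 and 170 when differences were tested against 1 log2 unit (treat). Quantile normalization gave 974 lower calls (54.9% of calls higher, against 62.0%). Leaving out 1 array gave 1297 to 1677 calls, 713 to 1190 higher and 475 to 752 lower, with 50.1% higher without WT pDC replicate 2 and 71.0% without WT pDC replicate 3. Without replicate 1 of both WT groups, 1063 were called, 668 higher and 395 lower. The median of all genes was 0.20 without WT pDC replicate 3 and 0.12 without WT cDC1 replicate 2. The 40 differences between cKO and WT became 68 (65 higher, 3 lower) with the array set and 83 (80 higher, 3 lower) with the random block, and 2 were lower without WT pDC replicate 3. The cKO contrast under other settings was added after seeing the data, and called 4074 genes (2691 higher) with the random block, 1461 lower with quantile normalization, and 6303 (4599 higher, 1704 lower) with array weights, whose estimation stopped before convergence. The causes were not tested. Genes near the array median have uncertain fold sizes.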
